A study of Homo sapiens with 8 samples.

Results

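MYC and 5 genes known as its targets, RRS1, NOP16, RRP12, NCL and ODC1, were followed across 8 Affymetrix arrays. The cells came from human T-ALL, the acute lymphoblastic leukaemia of T cells. In the cells of 4 arrays TOX had been targeted by a hairpin, and the other 4 arrays were of control cells. The probe sets were found by gene symbol in the annotation of the array, which gave 6 genes, each with 1 probe set, of 14884 genes and 53617 probe sets in all. They are probe sets 17072669 for MYC, 17069545 for RRS1, 17003050 for NOP16, 16717106 for RRP12, 16909491 for NCL and 16894402 for ODC1. The genes were chosen by earlier results on these same arrays, in which the log2 levels of shTOX cells had been set against those of control cells. For that reason every value from a contrast of shTOX arrays with control arrays is given here as a description of the 6 genes. Where a count of calls among them is printed for such a contrast, it restates that choice and nothing is read from it.

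The arrays came from CCRF-CEM and HPB-ALL, 2 established cell lines. In each line, 1 array was of cells carrying the short hairpin RNA shTOX-1, 1 of cells carrying shTOX-2, 1 of cells carrying a scramble hairpin and 1 of untransduced cells. The 3 transduced cultures of a line had been spinoculated with virus, selected with puromycin and kept for at least 2 weeks before RNA was taken. Untransduced cells are described with neither step, so the scramble array is the control that shares them. No line and construct had a second array, and the labels do not say whether the arrays stand for separate cultures. All spread therefore comes from hairpins, kinds of control and lines, and the p-values rest on nothing but that spread, which may in part be technical.

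MYC is a transcription factor that binds DNA as a dimer with MAX, preferably at the E-box CACGTG, and in T-ALL it is a well-known target of NOTCH signalling. Among the genes it is known to raise are those for making ribosomes. Ribosomes are built in the nucleolus, where RNA polymerase I makes the precursor RNA and assembly factors process it into a small and a large subunit. ODC1, which makes the first polyamine, is a classic MYC target outside the ribosome. TOX, the gene targeted by the hairpins, encodes a nuclear HMG-box protein of T cell development.

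A window of ODC1 at a start inside the gene is shown because it carries the MYC motif, and 26-base sites of other genes on the arrays are shown for the same motif in its setting of 10 bases on each side. Sequences are from RefSeq, build GRCh38.p14, in windows of 250 bases before to 50 bases after a start, and run 5′ to 3′ on the gene's strand. Capitals mark CACGTG, which reads the same on both strands. PNO1 and LTV1 belong to the small ribosomal subunit's assembly, MRTO4 to the large subunit's, GAR1 to the particles that guide modification of ribosomal RNA, and DOHH to the polyamine-dependent modification of a translation factor.
ODC1, chr2:10447963-10448262, minus strand: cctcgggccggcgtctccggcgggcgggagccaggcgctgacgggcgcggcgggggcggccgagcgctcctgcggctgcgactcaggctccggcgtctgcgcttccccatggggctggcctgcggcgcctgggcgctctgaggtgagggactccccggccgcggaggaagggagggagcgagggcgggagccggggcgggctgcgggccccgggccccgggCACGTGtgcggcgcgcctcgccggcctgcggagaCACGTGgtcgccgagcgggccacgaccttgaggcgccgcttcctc
PNO1, chr2:68157887-68157912, plus strand: tgcagctgcgCACGTGtttcagccgg
LTV1, chr6:143843356-143843381, plus strand: cctggggctgCACGTGtggtgaggcc
MRTO4, chr1:19251809-19251834, plus strand: tcttccgccgCACGTGgattcagcgc
GAR1, chr4:109815783-109815808, plus strand: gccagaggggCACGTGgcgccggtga
DOHH, chr19:3500668-3500693, minus strand: ccggcacggtCACGTGggcgagaaaa

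This ODC1 window held 2 copies of CACGTG, at bases 222 and 256 of the window. Windows of 3 of the 6 genes, ODC1, NCL and NOP16, were searched. The letters CACGTG were not in the windows of NCL and NOP16, nor in the ODC1 window at the outermost start of the gene, chr2:10448278-10448577, which held CACGCG on both strands in an overlapping pair of matches. Over the whole table, CACGTG was in 7.26% of 35116 windows, and in at least 1 window of 8.77% of 27305 genes. Among genes tested on the arrays it was in 12.6% of 6988 genes. Among tested genes of the ribosome production lists it was in 19 of 43 (44.2%), with 9 of 15 in small subunit maturation and 7 of 18 in large subunit maturation. The other motif, CACGCG on either strand, was in 22.7% of tested genes and in 12 of 43 ribosome production genes (27.9%). These are counts of letters and describe no binding.

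The deposited values are log2 intensities, and the arrays' medians lay between 4.62 and 4.71. Genes with a mean of at least log2 5.18, the 40th percentile, were tested, which left 8930, and all 6 genes passed. TOX read 10.65 and 9.86 in CCRF-CEM with shTOX-1 and shTOX-2, against 11.03 with scramble and 11.03 untransduced. In HPB-ALL it read 10.16 and 8.75 with shTOX-1 and shTOX-2, against 10.59 with scramble and 10.64 untransduced. On the linear scale the shTOX-1 arrays held 77.0% and 74.2% of the scramble level of TOX in CCRF-CEM and HPB-ALL. The shTOX-2 arrays held 44.6% and 28.0%, so both hairpins lay below both controls in each line, as for 4.99% of tested genes. The shTOX minus control difference of TOX was -0.96 ± 0.28 and did not pass (limma, adjusted p = 0.292). Against untransduced and scramble cells limma's adjusted p was 0.103 and 0.93. Even the gene targeted was not called, so an absence of calls does not show an absence of change. Of 9 listed T cell markers 6 were measured, and 5 of them (CD247, CD5, CD7, LCK and ZAP70) lay at or above the filter level while CD2 lay below it. The T cell list averaged log2 8.89 and 8.66 in shTOX CCRF-CEM arrays, against 8.86 and 9.02 in the scramble and untransduced ones, and 6.77 and 6.58 in shTOX HPB-ALL arrays, against 7.23 and 7.36 in the scramble and untransduced arrays of that line. The means of the lists for other cell types lay between 4.05 and 6.08 on every array. Only 1 to 4 genes of each of these lists were measured, and 1 gene of each lay at or above the filter level. Over the arrays these averaged 8.13 for NKG7 (NK cell), 6.04 for KRT8 (fibroblast and epithelial), 5.58 for KLF1 (erythroid), 5.55 for MPO (myeloid) and 5.33 for PAX5 (B cell). In bulk RNA of a cell line, fewer cells carrying a marker and less of its RNA per cell cannot be told apart.

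MYC read lower with both hairpins than in both matching controls, whichever the line, while its 5 targets did not. In CCRF-CEM it read log2 9.60 and 8.94 with shTOX-1 and shTOX-2, against 9.82 with scramble and 9.84 untransduced. HPB-ALL cells gave 9.72 and 9.66 with shTOX-1 and shTOX-2, against 10.00 with scramble and 10.36 untransduced. The lowest array was the CCRF-CEM one with shTOX-2, at 54.5% of its scramble level on the linear scale, whereas the other 3 shTOX arrays held 86.0%, 82.3% and 79.1%. The shTOX arrays averaged 9.48 ± 0.36 and the controls 10.0 ± 0.25 (SD, n = 4 each), a log2 difference of -0.52 ± 0.15 (SE). Taken by line it was -0.56 ± 0.23 for CCRF-CEM and -0.49 ± 0.23 for HPB-ALL. Over both lines limma called 0 of 8930 genes in this contrast (0.0%), with 1277 at an unadjusted p under 0.05. With the arrays of a construct paired across the lines as a block it called 16, none of the 6 among them. Both shTOX arrays lay below both controls in both lines for 4.99% of tested genes, and MYC is among them. It is also among the 20.8% with this arrangement in CCRF-CEM, the 16.3% with it in HPB-ALL, the 21.5% with all 4 shTOX arrays below the untransduced array of their line and the 9.69% with all 4 below the scramble array. Since this contrast was in view when MYC was chosen, nothing is read from these shares.

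RRS1, an assembly factor that brings the 5S ribosomal RNA particle into the large subunit, did not follow MYC downward. In CCRF-CEM it read 9.56 and 9.37 with shTOX-1 and shTOX-2, against 9.50 with scramble and 8.82 untransduced. The HPB-ALL arrays read 10.21 and 10.20 with shTOX-1 and shTOX-2, against 9.30 with scramble and 9.50 untransduced. Both HPB-ALL shTOX arrays stood above both controls of that line, whereas in CCRF-CEM the scramble array lay between the hairpins. The shTOX minus control difference was 0.55 ± 0.17 over both lines, 0.30 ± 0.23 within CCRF-CEM and 0.80 ± 0.23 within HPB-ALL.

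NOP16, a nucleolar protein of large subunit assembly, read from 5.90 to 7.56 over the 8 arrays. In CCRF-CEM it read 6.80 and 6.50 with shTOX-1 and shTOX-2, against 6.75 with scramble and 5.90 untransduced. In HPB-ALL it read 7.56 and 7.37 with shTOX-1 and shTOX-2, against 6.85 with scramble and 6.58 untransduced. Here too the CCRF-CEM scramble array stood between the hairpins and the HPB-ALL one below both. The shTOX minus control difference was 0.54 ± 0.19 over both lines, 0.33 ± 0.27 within CCRF-CEM and 0.75 ± 0.27 within HPB-ALL.

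RRP12, known from yeast for maturation and export of the small subunit, differed little among transduced CCRF-CEM cells. It read 8.86 and 8.72 with shTOX-1 and shTOX-2 in that line, against 8.80 with scramble and 7.89 untransduced. HPB-ALL cells gave 8.80 and 8.85 with shTOX-1 and shTOX-2, against 8.28 with scramble and 8.32 untransduced. The 4 shTOX arrays had an SD of 0.06 around 8.81 and the 4 controls an SD of 0.38 around 8.32, and the CCRF-CEM untransduced array was the lowest of all. Over both lines the difference was 0.48 ± 0.18.

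NCL encodes nucleolin, an abundant nucleolar protein that binds precursor ribosomal RNA. It read 10.60 and 10.70 with shTOX-1 and shTOX-2 in CCRF-CEM, against 10.84 with scramble and 10.21 untransduced. The HPB-ALL arrays read 10.76 and 10.88 with shTOX-1 and shTOX-2, against 10.60 with scramble and 9.94 untransduced. The untransduced arrays were the lowest of each line, while scramble was above both hairpins in CCRF-CEM and below both in HPB-ALL. The shTOX minus control difference was 0.34 ± 0.19, and only 0.02 ± 0.15 when scramble alone was the control.

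ODC1, ornithine decarboxylase, read 11.59 and 11.16 with shTOX-1 and shTOX-2 in CCRF-CEM, against 11.52 with scramble and 10.63 untransduced. In HPB-ALL it read 11.55 and 11.54 with shTOX-1 and shTOX-2, against 11.16 with scramble and 10.98 untransduced. As with NOP16, the scramble array lay between the hairpins in CCRF-CEM and below both in HPB-ALL, and the untransduced array was the lowest of either line. The shTOX minus control difference was 0.39 ± 0.19.

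**Figure D1:**
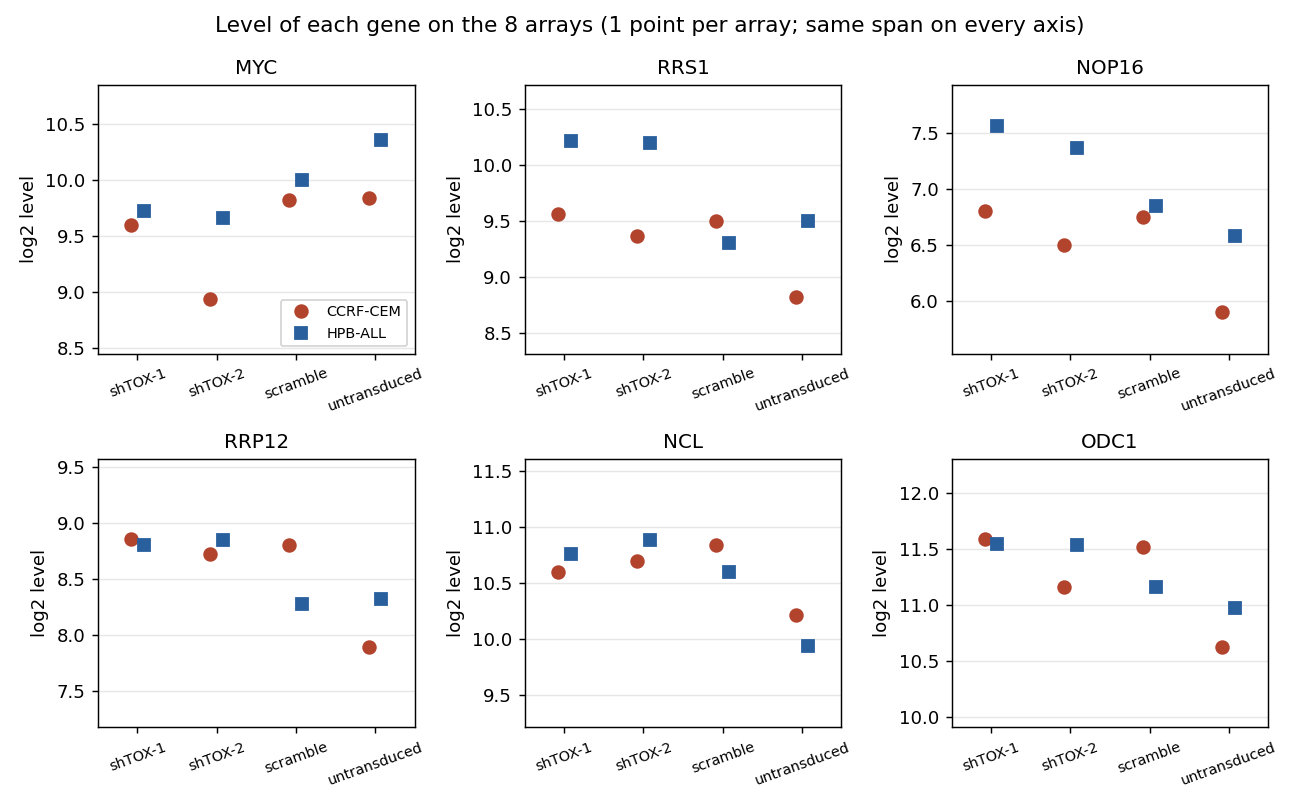
Log2 level of MYC, RRS1, NOP16, RRP12, NCL and ODC1 (y axes, all of the same span) on the 8 arrays by construct (x axes), 1 point an array, circles for CCRF-CEM and squares for HPB-ALL. MYC is lowest at 8.94 in CCRF-CEM with shTOX-2. Among the CCRF-CEM arrays the 5 targets are lowest on the untransduced one, with readings such as 5.90 for NOP16 and 7.89 for RRP12. The lowest NCL reading of all 8 arrays is 9.94, in untransduced HPB-ALL cells.

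Counted over arrays, all 5 targets had both HPB-ALL shTOX arrays above both HPB-ALL controls, an arrangement found in 24.5% of tested genes. None of them had it in CCRF-CEM, where 22.3% of tested genes did, and none had it in both lines, where 6.36% did. All 4 shTOX arrays lay above the untransduced array of their own line for all 5 targets, as for 27.7% of tested genes. None of the 5 had all 4 shTOX arrays above the scramble array of their line, an arrangement of 11.9% of tested genes. These counts come from the contrast behind the choice of the genes and are given as a description.

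The differences of the targets depended on the control. Against untransduced cells, shTOX cells were higher by log2 0.67 ± 0.20 for RRS1, 0.82 ± 0.18 for NOP16, 0.70 ± 0.18 for RRP12, 0.66 ± 0.15 for NCL and 0.65 ± 0.18 for ODC1. These are folds of 1.59, 1.77, 1.63, 1.58 and 1.57. MYC differed by -0.62 ± 0.18, a fold of 1.53 in the other direction. Over all tested genes, limma with Benjamini-Hochberg adjustment called 552 (6.18%) higher and 504 (5.64%) lower at an adjusted p under 0.05. Of the 6 genes 4 passed that threshold, and since they were picked from these same arrays, that count is no test.

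Against scramble cells the same shTOX arrays differed less. The log2 differences were -0.43 ± 0.18 for MYC, 0.43 ± 0.20 for RRS1, 0.26 ± 0.18 for NOP16, 0.27 ± 0.18 for RRP12, 0.02 ± 0.15 for NCL and 0.12 ± 0.18 for ODC1. Of 8930 genes limma called 0 (0.0%), with 459 at an unadjusted p under 0.05. Leaving out the HPB-ALL scramble array gave -0.03 for RRS1, -0.08 for NOP16, -0.08 for RRP12, -0.11 for NCL and -0.17 for ODC1. Leaving out the CCRF-CEM one gave 0.89 for RRS1, 0.59 for NOP16, 0.61 for RRP12 and 0.41 for ODC1. Each of these fits has only the scramble array of the other line, and so largely restates that line's own difference. MYC lay between -0.56 and -0.29 in every fit run for this comparison. The comparisons with untransduced and with scramble arrays share the shTOX arrays.

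**Figure D2:**
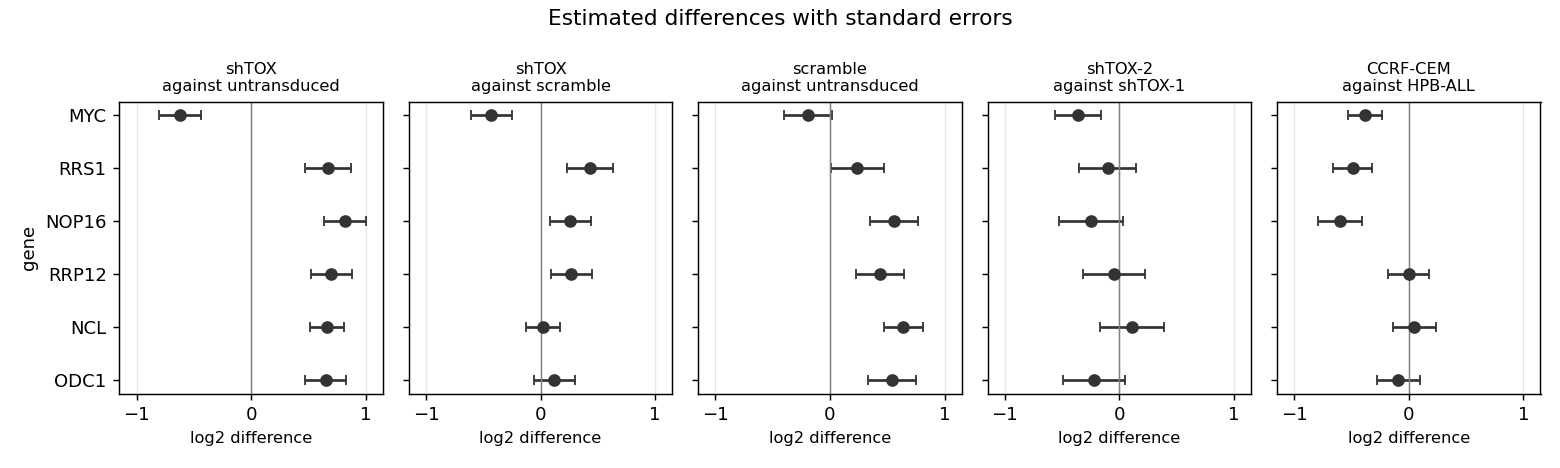
Log2 difference with its standard error (x axis) for each of the 6 genes (y axis) in 5 comparisons, each the first-named group minus the second. MYC is negative in all 5, at -0.62 for shTOX against untransduced cells and -0.43 for shTOX against scramble cells, and NCL is at 0.66 and 0.02 in the same comparisons.

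Scramble cells were set against untransduced cells to see what transduction and selection go with when no TOX hairpin is present; no shTOX array enters this difference. None of the 6 genes passed, beside 95 called of all tested genes (1.06%; 52 higher, 0.582%, and 43 lower, 0.482%). The number called over all genes was not stable: it lay between 3 and 89 when 1 array was left out, with 3 when that was CCRF-CEM shTOX-2, 4 when it was CCRF-CEM untransduced and 7 when it was CCRF-CEM scramble. It was 9 with constructs as a block. NCL averaged 10.72 ± 0.17 in scramble and 10.08 ± 0.19 in untransduced cells (SD, n = 2 each), a difference of 0.64 ± 0.17 (SE) with limma's adjusted p = 0.0987. NOP16 differed by 0.56 ± 0.21 (limma, adjusted p = 0.206), ODC1 by 0.54 ± 0.21 (0.224) and RRP12 by 0.44 ± 0.21 (0.317). RRS1 differed by 0.24 ± 0.23 and MYC by -0.19 ± 0.21, with limma's adjusted p of 0.643 and 0.696. Scramble was above untransduced in both lines for NOP16, NCL and ODC1, as for 33.8% of tested genes. In CCRF-CEM the untransduced array was the lowest of the 4 for all 5 targets, as for 36.9% of tested genes. In HPB-ALL it was so for NOP16, NCL and ODC1, beside 33.6% of tested genes, and in both lines for the same 3, beside 20.5%.

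Genes of cell division moved with the untransduced arrays as well. Of 20 listed, 19 were tested. All 19 were higher in shTOX than in untransduced cells, with a median of 0.70 against 0.04 over all genes. Of them 16 were called, beside 6.18% of all tested genes called higher. Among the 16, only CCNB1 kept its call without the CCRF-CEM untransduced array. Set against scramble cells, 11 of the 19 were higher and 0 were called, with a median of 0.03. CCNB1, the cyclin of mitotic entry, rose by 1.34 ± 0.17 in shTOX over untransduced cells (limma, adjusted p = 0.0048). It also rose by 1.14 ± 0.20 in scramble over untransduced cells (0.0395), though 7 of 8 fits that each left out an array lost the call for scramble cells. Relative to scramble, the list's median in CCRF-CEM was -0.08 with shTOX-1, 0.06 with shTOX-2 and -0.79 in untransduced cells, and in HPB-ALL -0.01, 0.19 and -0.58. The part of cell division in the targets' differences was not tested.

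TOX itself read lower with shTOX-2 than with shTOX-1 in both lines, by -1.10 ± 0.20, which did not pass (limma, adjusted p = 0.401). MYC read 8.94 with shTOX-2 and 9.60 with shTOX-1 in CCRF-CEM. Its HPB-ALL readings were 9.66 with shTOX-2 and 9.72 with shTOX-1. Its difference of -0.36 ± 0.20 did not pass (limma, adjusted p = 0.9999), and those of the targets lay between -0.25 ± 0.28 for NOP16 and 0.11 ± 0.28 for NCL, with the same adjusted p. Of all tested genes limma called 0 (0.0%), with 381 at an unadjusted p under 0.05. MYC, RRS1, NOP16 and ODC1 were lower with shTOX-2 than with shTOX-1 in both lines, as were 37.0% of tested genes.

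Between the lines, the shTOX minus control difference was compared by an interaction term, CCRF-CEM minus HPB-ALL. It was -0.50 ± 0.32 for RRS1 and -0.42 ± 0.37 for NCL (limma, adjusted p = 0.973 for each) and -0.42 ± 0.39 for NOP16 (0.974). The terms of MYC, RRP12 and ODC1 were -0.07 ± 0.32, -0.08 ± 0.37 and -0.17 ± 0.40 (0.996 for each). No gene was called (0.0%), and 410 had an unadjusted p under 0.05. The standard errors of these terms lay between 0.32 and 0.40.

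With scramble alone as the control, a choice made after seeing the data, the lines stood further apart for the targets. For RRS1 the mean of the shTOX arrays minus scramble was -0.04 in CCRF-CEM, against 0.90 in HPB-ALL. It was -0.10 and 0.61 in the same lines for NOP16, and -0.02 and 0.55 for RRP12. It was -0.19 and 0.22 for NCL and -0.14 and 0.38 for ODC1. For MYC it was -0.55 and -0.31, lower than scramble in both lines. The interaction of RRS1 was -0.94 ± 0.26 (limma, adjusted p = 0.471), and those of the other 5 genes had adjusted p between 0.557 and 0.887. The smallest adjusted p over all genes was 0.366, with 0 genes called and 795 at an unadjusted p under 0.05.

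Levels were also compared between the lines over all 4 constructs, and of the 6 genes only NOP16 was called. NOP16 averaged 6.49 in CCRF-CEM and 7.09 in HPB-ALL, a difference of -0.60 ± 0.19 (limma, adjusted p = 0.0422), beside 14.9% of tested genes called lower in CCRF-CEM and 27.4% called in either direction. That call was lost in 6 of 8 fits that left out 1 array, with adjusted p between 0.0797 and 0.134; it held without the CCRF-CEM scramble array (0.00257) and without the HPB-ALL untransduced array (0.0397). It was also lost with no filter on low values (0.0583) and after quantile normalization (0.0571). RRS1 differed by -0.49 ± 0.17 (0.0588) and MYC by -0.38 ± 0.15 (0.0955). RRS1 passed without the CCRF-CEM scramble array (-0.67, adjusted p = 0.00404) and without the HPB-ALL scramble array (-0.58, 0.0427), and MYC without the CCRF-CEM shTOX-1 array (-0.51, 0.0392). For RRP12, NCL and ODC1 the differences were 0.00 ± 0.18, 0.05 ± 0.19 and -0.09 ± 0.19, with limma's adjusted p of 0.989, 0.886 and 0.775.

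The wider machinery of ribosome production was followed through lists of RNA polymerase I, nucleolar chaperones, small nucleolar ribonucleoprotein (snoRNP) cores and small and large subunit maturation. Of 84 listed genes 54 were tested, 50 of them other than RRS1, NOP16, RRP12 and NCL. Against untransduced cells, 46 of the 50 were higher in shTOX cells, 11 called higher (22.0%, against 6.18% of all tested genes) and 1 called lower, with a median of 0.34 against 0.04 over all genes. Against scramble cells 41 were higher and 0 called, with a median of 0.10 against 0.02. In scramble against untransduced cells 45 were higher and 0 called, with a median of 0.22 against 0.02. Of all tested genes 55.0%, 53.8% and 53.4% were higher in these comparisons, in the same order.

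Among genes of small subunit maturation, all 16 tested besides RRP12 were higher in shTOX than in untransduced cells, against 55.0% of all tested genes. Of the 16, 2 were called higher, beside 6.18% of all tested genes. PNO1, an assembly factor of the small subunit, read 8.71 and 8.36 with shTOX-1 and shTOX-2 in CCRF-CEM, against 8.56 with scramble and 7.78 untransduced. HPB-ALL cells gave 8.85 and 8.82 with shTOX-1 and shTOX-2, against 8.35 with scramble and 8.22 untransduced. It was higher than untransduced by 0.68 ± 0.17 (limma, adjusted p = 0.0312), and NOC4L, another assembly factor, by 0.56 ± 0.13 (0.0254). LTV1, which leaves the maturing small subunit late, read 10.45 and 10.59 with shTOX-1 and shTOX-2 in HPB-ALL, against 9.72 with scramble and 9.95 untransduced. In CCRF-CEM it read 9.79 and 9.87, against 9.80 with scramble and 9.14 untransduced, and over both lines its difference from scramble was 0.41 ± 0.19, not called.

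Large subunit maturation, without RRS1 and NOP16, had 20 of 21 tested genes higher in shTOX than in untransduced cells, against 55.0% of all genes. Of the 21, 6 were called higher, beside 6.18% of all tested genes. MRTO4, which stands in for a stalk protein while the large subunit matures, read 9.30 and 8.98 with shTOX-1 and shTOX-2 in CCRF-CEM, against 9.12 with scramble and 7.53 untransduced. The HPB-ALL arrays read 9.01 and 8.99, against 8.58 with scramble and 8.13 untransduced. Its rise over untransduced cells was 1.24 ± 0.21 (limma, adjusted p = 0.01), the widest of the ribosome production genes called. The others were RRP1B (0.76 ± 0.14), RRP1 (0.63 ± 0.15), GTPBP4 (0.60 ± 0.16), FTSJ3 (0.59 ± 0.16) and NIP7 (0.51 ± 0.14), with adjusted p from 0.0125 to 0.048. The call of NIP7 was lost in each of the 8 fits that left out an array.

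The smaller lists were mixed. POLR1F, a subunit of RNA polymerase I, was higher in shTOX than in untransduced cells by 0.82 ± 0.16 (limma, adjusted p = 0.014), whereas the other 2 tested genes of its list were lower and not called. GAR1, of the pseudouridine-guiding snoRNP, rose by 0.64 ± 0.16 (0.0324) among 6 of 6 snoRNP core genes that were higher. Of 4 nucleolar chaperones besides NCL, TCOF1, a nucleolar phosphoprotein, rose by 0.64 ± 0.14 (limma, adjusted p = 0.0218). NOP53, of the same list and a factor of large subunit assembly, fell by 0.70 on the log2 scale (SE 0.14, adjusted p = 0.0168).

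These calls rested on the untransduced arrays. Without the CCRF-CEM untransduced array, called genes went to 29 in all and to 0 among the 50, and the ribosome production genes named above as called all lost their calls. The 50 then still had 45 higher and a median of 0.28. Without the HPB-ALL untransduced array 2 of the 50 were called. Calls among the 50 numbered 4 without the HPB-ALL shTOX-2 array, 5 without the HPB-ALL shTOX-1 array and 5 without the CCRF-CEM shTOX-1 array.

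**Figure D3:**
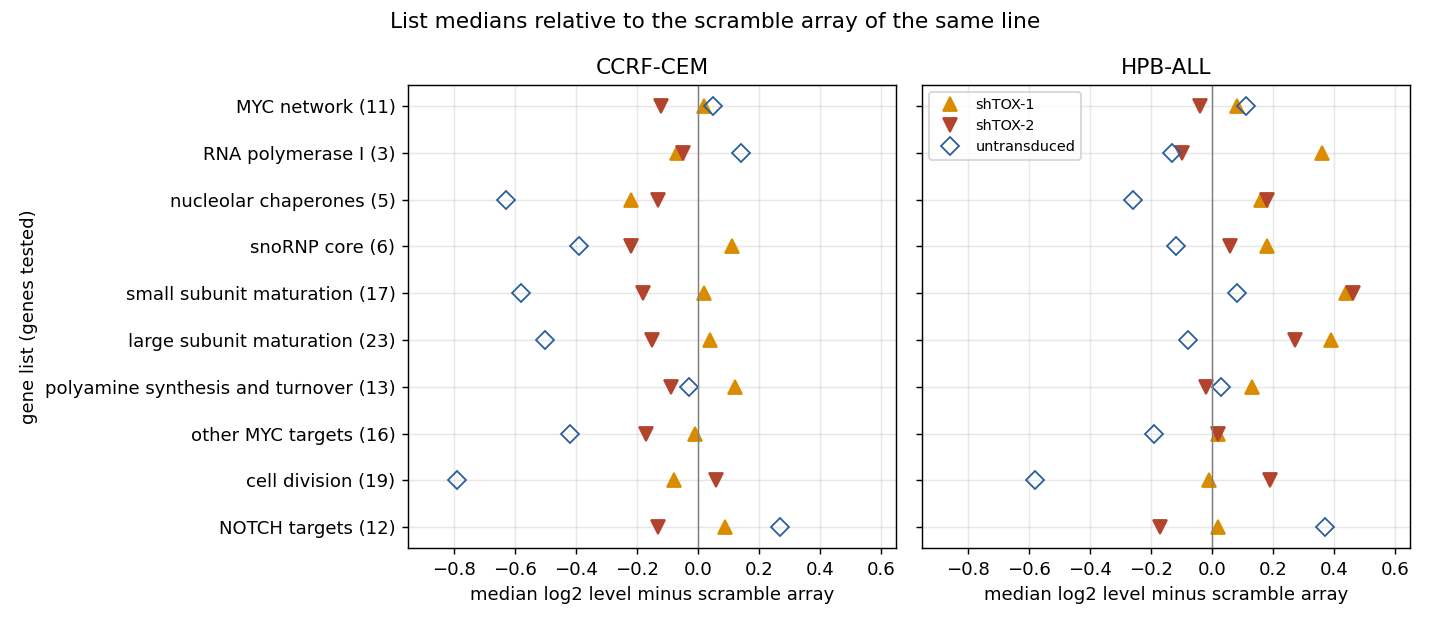
Median log2 level of each gene list minus the scramble array of the same line (x axes), for shTOX-1, shTOX-2 and untransduced arrays, CCRF-CEM left and HPB-ALL right, with the number of tested genes, the 6 genes included, in brackets (y axis). In HPB-ALL the small and large subunit lists lie at 0.44 and 0.39 with shTOX-1, and in CCRF-CEM at 0.02 and 0.04, where the untransduced medians are -0.58 and -0.50.

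The split of the lines seen for the targets against scramble was also there in the other 50 genes. In CCRF-CEM 14 were above and 36 below scramble in the mean of the shTOX arrays, with a median of -0.08 and a range of -0.43 to 0.21. In HPB-ALL 46 were above and 4 below, with a median of 0.32 and a range of -0.33 to 0.80. The value in CCRF-CEM was below that in HPB-ALL for 46 of the 50, beside 53.8% of all tested genes, and no gene's difference of the lines was called. Each line has 1 scramble array, which enters all of these values. Without the HPB-ALL scramble array the fit rested on the CCRF-CEM scramble array alone, with 14 of the 50 higher and a median of -0.09. Without the CCRF-CEM one it rested on that of HPB-ALL, with 46 higher and a median of 0.30. These fits largely restate the values by line and are no separate check.

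**Figure D4:**
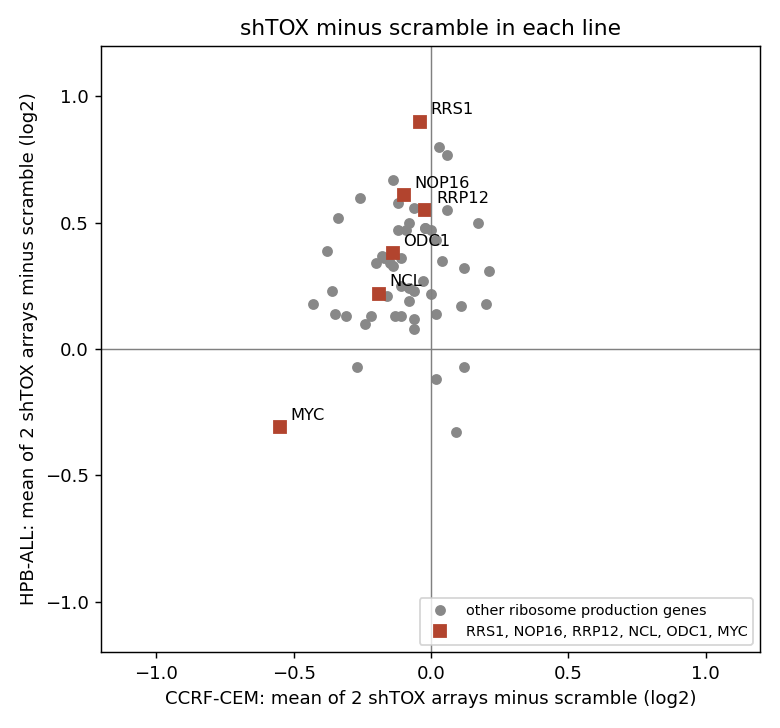
Mean of both shTOX arrays minus the scramble array (log2) in CCRF-CEM (x axis) and HPB-ALL (y axis), 1 point a gene, for the 6 named genes and the other 50 tested ribosome production genes. RRS1 lies at -0.04 and 0.90 and MYC at -0.55 and -0.31, while the other 50 genes have medians of -0.08 and 0.32.

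By line, ribosome production genes were mostly lower in CCRF-CEM than in HPB-ALL. Of the 50, 42 were lower and 8 higher, beside 49.3% higher of all tested genes. Of the 42, 7 were called lower, beside 14.9% of all tested genes, so the share called is near the background. Another 1 of the 50 was called higher. NOP2, a methyltransferase of large subunit ribosomal RNA, averaged 9.09 ± 0.08 in CCRF-CEM and 9.70 ± 0.12 in HPB-ALL (SD, n = 4 each), a difference of -0.61 ± 0.11 (limma, adjusted p = 0.002). RCL1, needed for the cut that starts small subunit maturation, differed by -0.72 ± 0.16 (0.00872) and NOC3L by -0.59 ± 0.13 (0.00666). These 3 calls held in all 8 fits that left out 1 array. HEATR1, LTV1 and POLR1F were also called lower in CCRF-CEM, and NOP53 was the gene called higher there, at 10.89 ± 0.35 in CCRF-CEM and 10.24 ± 0.36 in HPB-ALL (SD, n = 4 each). These 4 calls were kept in 2 to 4 of the 8 fits.

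Besides ODC1, 12 genes of polyamine synthesis and turnover were tested, of which 6 were higher in shTOX than in untransduced cells, with a median of 0.01. SMS, spermine synthase, read 9.45 and 9.26 with shTOX-1 and shTOX-2 in CCRF-CEM, against 9.36 with scramble and 8.35 untransduced. In HPB-ALL it read 9.37 and 9.37, against 9.08 with scramble and 8.58 untransduced, and its rise over untransduced cells was 0.90 ± 0.14 (limma, adjusted p = 0.00843). DOHH, which completes the hypusine of a translation factor from a polyamine-derived residue, rose by 0.71 ± 0.16 (0.0267). SAT1, which starts the breakdown of polyamines, read 7.89 and 7.47 with shTOX-1 and shTOX-2 in CCRF-CEM, against 7.77 with scramble and 8.20 untransduced. HPB-ALL cells gave 7.24 and 7.61, against 7.74 with scramble and 8.28 untransduced, and it fell by 0.69 relative to untransduced cells (SE 0.17, adjusted p = 0.0321). SMS, DOHH and SAT1 lost their calls without the CCRF-CEM untransduced array, and none was called against scramble cells. SMOX, spermine oxidase, differed between the lines, at 7.46 ± 0.30 in CCRF-CEM and 9.47 ± 0.36 in HPB-ALL (SD, n = 4 each), by -2.01 ± 0.20 (limma, adjusted p = 5.19e-05).

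Genes of the MYC network, the dimer partners and competitors of MYC and MAX, were mostly lower in shTOX than in untransduced cells. Without MYC itself 7 of 10 were lower, with a median of -0.20, and 3 higher, beside 55.0% higher of all tested genes. Against scramble cells 6 of the 10 were lower, with a median of -0.01, and in scramble against untransduced cells 7 of the 10, with a median of -0.17. MXD1, which takes MAX away from MYC and represses E-box genes, read 8.17 and 7.91 with shTOX-1 and shTOX-2 in CCRF-CEM, against 8.19 with scramble and 9.56 untransduced. The HPB-ALL arrays read 7.04 and 6.67, against 7.40 with scramble and 7.41 untransduced. It fell by 1.04 relative to untransduced cells (SE 0.25, limma, adjusted p = 0.0291), a call kept in 4 of 8 fits that left out an array and lost without the CCRF-CEM untransduced array, whose level was the highest of the 8. MXD1 was higher in CCRF-CEM than in HPB-ALL by 1.33 ± 0.25 (0.00314), and MGA, another MAX partner, by 0.89 ± 0.14 (0.00116). MXD3, of the same list, went the other way, by -0.47 ± 0.15 (limma, adjusted p = 0.0399). Its call was kept in 3 of 8 fits that left out an array. Between the lines 2 of the 10 were thus called higher in CCRF-CEM and 1 lower, beside 12.4% and 14.9% of all tested genes.

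Other MYC targets outside ribosome production gave no common direction against scramble cells, with 8 of 16 higher and a median of -0.01. Against untransduced cells 14 of 16 were higher, beside 55.0% of all tested genes, and 2 were called higher, beside 6.18%. PRDX3, a mitochondrial peroxidase, rose by 0.89 ± 0.14 (limma, adjusted p = 0.00849) and SHMT1, of one-carbon metabolism, by 0.68 ± 0.12 (0.0114), both calls lost without the CCRF-CEM untransduced array. PRDX3 also rose by 0.94 ± 0.16 in scramble over untransduced cells (0.0365), a call lost in 7 of 8 fits that left out an array. The furthest from scramble were TERT, the telomerase catalytic subunit, at -0.45 ± 0.17 and LDHA, lactate dehydrogenase A, at -0.28 ± 0.12, neither called. TERT, SHMT2 and CCND2 were lower in CCRF-CEM than in HPB-ALL by log2 differences of -1.04 ± 0.18, -0.54 ± 0.13 and -2.16 ± 0.12 (limma, adjusted p = 0.00221, 0.01 and 5.76e-07), and CCND2 lay below the filter level on every CCRF-CEM array.

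NOTCH targets were followed because MYC is among them in T-ALL. Of 12 tested, 10 were lower in shTOX than in untransduced cells, with a median of -0.48. The other 2 were higher, beside 55.0% of all tested genes. Against scramble cells 6 were lower, with a median of -0.01. Relative to untransduced cells 2 were called lower, beside 5.64% of all tested genes. LZTFL1 fell by 0.95 (SE 0.19, limma, adjusted p = 0.0167) and DTX4 by 0.59 (SE 0.14, 0.0279) relative to untransduced cells. Both calls were lost without the CCRF-CEM untransduced array. DTX4 lay below the filter level on the 3 transduced CCRF-CEM arrays, at 4.62 and 4.78 with shTOX-1 and shTOX-2 and 5.03 with scramble. Against scramble cells LZTFL1 differed by -0.81 ± 0.19, the widest difference of its list, and was not called.

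The genes whose pattern over the 8 arrays was nearest to each of the 6 were ranked by the root mean square difference of log2 values, each centred within its line. For MYC, whose own root mean square around its line means was 0.322, they were CTH (0.095), PARD6B (0.103) and TMEM63C (0.107). TMEM63C read 6.42 and 6.05 with shTOX-1 and shTOX-2 in CCRF-CEM, against 6.75 with scramble and 6.72 untransduced. As for MYC, the shTOX-2 array of that line was the lowest. CTH lay below the filter level on all CCRF-CEM arrays.

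For RRS1 the nearest were GPATCH4 (0.080), LTV1 (0.092) and RPUSD1 (0.095), and for NOP16 RPUSD1 (0.057), SFXN2 (0.060) and APOO (0.069). For RRP12 they were ACTL6A (0.084), PNO1 (0.084) and LYAR (0.087), for ODC1 PNO1 (0.051), GLRX2 (0.062) and AEN (0.078), and for NCL HCFC1 (0.060), PIF1 (0.078) and IL4I1 (0.082). LTV1 and PNO1 were thus met again from the small subunit list. Among the 8929 other tested genes, RRP12 ranked 17 from RRS1 and ODC1 ranked 29 from NOP16, whereas MYC ranked between 7981 and 8299 from the 5 targets. From NCL the others were further, with NOP16 at rank 653 and ODC1 at rank 747. These distances describe 8 arrays that all the genes share. They take in the contrast of shTOX with control arrays, which was in view when MYC and the 5 targets were chosen. The ranks of these genes from one another therefore in part restate that choice, and nothing is read from them.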

How the data were processed

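Total RNA for the 8 arrays was labelled and hybridised by the GeneChip WT Plus procedure, per the labels' protocols. The values the authors deposited are on the log2 scale, as judged from their range, and hold no gaps; how the background was corrected and the arrays normalized, and with which software, is not given in the sources used here. Of 53617 probe sets, 16098 had 1 gene symbol, 0 several and 37519 none; all 16098 Entrez identifiers matched the RefSeq table, which named 14884 genes. A gene with several probe sets (779 genes) was represented by that of the highest mean.

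Differences were fitted with limma 3.58.1 in R 4.3.3 on all 8 arrays (lmFit, contrasts.fit, eBayes), with line as a term. For shTOX against controls, the hairpins, the lines and the interaction, scramble and untransduced arrays formed 1 group, so their difference counts as spread. The other fits kept them apart. For NCL the standard error was 0.28 between the hairpins and 0.17 for scramble against untransduced cells, with 2 arrays a side in each. Calls were made below 0.05 after Benjamini-Hochberg adjustment over 8930 genes. The scripts were tested on simulated data. The 6 genes, the gene lists and the tests were chosen with earlier results of these data known. Named genes were drawn from the called members of each list or otherwise up to 3 with the widest differences. For comparisons without shTOX against a control, they were drawn from up to 3 called genes per list. Not every such gene is named in the text. Of the 16 called cell division genes only CCNB1 is, and some called differences of the lines are left out. Likeness took the 3 nearest genes. Alternatives were no filter, an intensity trend, the mean over probe sets, quantile normalization, array weights, a replicate block, leaving out each array and leaving out both untransduced arrays. Where an array was left out and a line and construct had no other, the rest was assumed to vary alike. The numbers 1 and 2 name hairpins: deviations of arrays with the same hairpin in both lines correlated at 0.225 over 8930 genes, those of the same control at 0.371, and the shared hairpin was used only as the block. No batch or scan date is given in the sources used here. The number of arrays limits the precision.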

Additional observations from a re-analysis of the deposited data

Results flagged for a closer look

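NCL is the only one of the 6 genes for which every shTOX array lay on opposite sides of scramble in the lines: both arrays were below it in CCRF-CEM, with a mean difference of -0.19, and both above it in HPB-ALL, with 0.22. The difference of these differences was -0.41 ± 0.25 (limma, adjusted p = 0.675), and with both kinds of control together -0.42 ± 0.37 (adjusted p = 0.973), so neither passed.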

How the results depend on the processing

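Each line and construct has 1 array, and leaving out an array changed many counts; the cause was not tested. Genes called over the 8 such fits ranged from 0 to 4 for shTOX against controls, from 29 to 1086 for shTOX against untransduced cells (of the 6 genes, from 0 to 5), from 0 to 1 for shTOX against scramble, from 3 to 89 for scramble against untransduced cells and from 0 to 4 for the interaction, and from 0 to 2 of the 6 genes were called between the lines. Differences that changed sign ranged, for shTOX against scramble, from -0.03 to 0.89 for RRS1, -0.08 to 0.59 for NOP16 and -0.08 to 0.61 for RRP12. For NCL the range was -0.11 to 0.15 and for ODC1 -0.17 to 0.41. The ends of these ranges are the fits without a scramble array, which rest on the scramble array of the other line. RRS1 ranged from -0.22 to 0.70 in scramble against untransduced cells, and in shTOX-2 against shTOX-1 from -0.32 to 0.13, with RRP12 from -0.14 to 0.04 and NCL from -0.03 to 0.26. For the interaction MYC ranged from -0.40 to 0.26, NOP16 from -0.85 to 0.00, RRP12 from -0.54 to 0.37 and ODC1 from -0.62 to 0.27. Between the lines RRP12 ranged from -0.19 to 0.18, NCL from -0.13 to 0.13 and ODC1 from -0.28 to 0.07. With the replicate block, which pairs arrays of the same construct across the lines, limma called 16 genes for shTOX against controls, none of the 6 among them, and 9 for scramble against untransduced cells. An intensity trend called 182 genes and array weights 16 for scramble against untransduced cells, and array weights called 2 for shTOX-2 against shTOX-1. Without the filter, 2 of the 6 genes were called in shTOX against untransduced cells and 0 between the lines. Between the lines 0 of the 6 passed after quantile normalization, 2 with an intensity trend and 2 with array weights. Quantile normalization turned the interaction of MYC to 0.06 and of RRP12 to 0.04, and array weights turned the difference of the lines for RRP12 to -0.02. Without both untransduced arrays the shTOX minus control difference was 0.26 for NOP16, 0.02 for NCL and 0.12 for ODC1. MYC was lower in shTOX cells in every fit run against controls, from -0.65 to -0.38.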
